A study of Homo sapiens with 6 samples.

Results

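The vesicle coats COPII and COPI, with the ARF GTPases that recruit COPI, were followed in DLD1, a long-established line of human colorectal adenocarcinoma cells. The set held 36 genes, of which 16 encode COPII proteins, 9 encode COPI subunits, and 11 encode ARF GTPases or their regulators. A gene was a member by its symbol and was read from 1 probe set (a group of array probes against 1 transcript), the one with the highest mean over the 6 arrays among those annotated with that symbol alone. All 36 were found among the 18132 genes that could be read in this way. The probe sets were thus chosen by their mean level over all arrays, and levels are given here as a description.

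The cells had been infected with lentivirus that expresses a short hairpin RNA (shRNA) against CDKL1, a cyclin-dependent kinase-like serine/threonine kinase, or with lentivirus that expresses a control shRNA. Each group held 3 samples, and the RNA of each sample went onto 1 Affymetrix expression array. The labels name no hairpin sequence and no time after infection, and both groups carry a lentivirus and a hairpin, so uninfected cells are not part of the comparison. Values are log2 expression values that the authors normalised between arrays with RMA, so a difference of 1 is a change by a factor of 2.

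COPII vesicles carry newly made proteins out of the endoplasmic reticulum. The GTPase SAR1 starts the coat there, an inner layer of SEC23 and SEC24 picks up cargo, and an outer layer of SEC13 and SEC31 bends the membrane. COPI vesicles move in the other direction, from the Golgi back to the endoplasmic reticulum, and between Golgi cisternae. GTP-bound ARF proteins bring the COPI coat to the membrane, exchange factors such as GBF1 load them with GTP, and ARFGAP proteins make them hydrolyse it.

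Most of the coat genes were higher in CDKL1 shRNA cells. Of the 36 genes, 21 rose and 3 fell at an adjusted p under 0.05 (limma, Benjamini-Hochberg over all genes), and 12 did not pass. Over all genes 8.97% rose and 7.79% fell by the same rule, 16.8% in all. The median change of the 36 genes was 0.29 on the log2 scale, against -0.01 for all genes. Changes were moderate in size and ran from -0.65 for SEC23A, a subunit of the inner COPII coat, to 0.88 for ARF4, an ARF GTPase of the early Golgi. At least 1.5-fold changes were seen for SEC23IP, SEC24A, SEC31A, COPA and ARF4 among the rises and for SEC23A among the falls, where 0.689% of all genes rose and 0.513% fell by that much.

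The shift was present on each of the CDKL1 shRNA arrays. The median difference of the 36 genes from their control mean was 0.25, 0.28 and 0.28 on the 3 CDKL1 shRNA arrays and -0.02, 0.00 and 0.02 on the 3 control shRNA arrays. In 26 of the 36 genes every CDKL1 shRNA array lay above every control shRNA array, in 5 every one lay below, and in 5 the groups overlapped. Over all genes 18.1% lay wholly above and 17.6% wholly below. Most of these genes are bright on the array: their mean levels had a median at percentile 85.5 of all genes. Among genes brighter than the median gene the share called was larger than over all genes, at 15.5% higher and 12.3% lower. In RNA from whole cultures, fewer cells of a type and less RNA per cell cannot be told apart.

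The median change differed between the 3 groups of the set. COPI had 6 of 9 genes higher and 0 lower by limma (1 lower at an unadjusted p under 0.05, COPZ1), with a median change of 0.44. COPII had 10 of 16 higher and 2 lower, with a median of 0.29. The ARF genes and their regulators had 5 of 11 higher and 1 lower, with a median of 0.14. On the single CDKL1 shRNA arrays, the median shift of COPI was 0.43, 0.36 and 0.49, that of COPII was 0.28, 0.29 and 0.28, and that of the ARF group was 0.16, 0.16 and 0.18. The COPI median was the highest and the ARF median the lowest on each of these arrays. These medians are descriptions, and the difference between the groups was not tested.

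**Figure D1:**
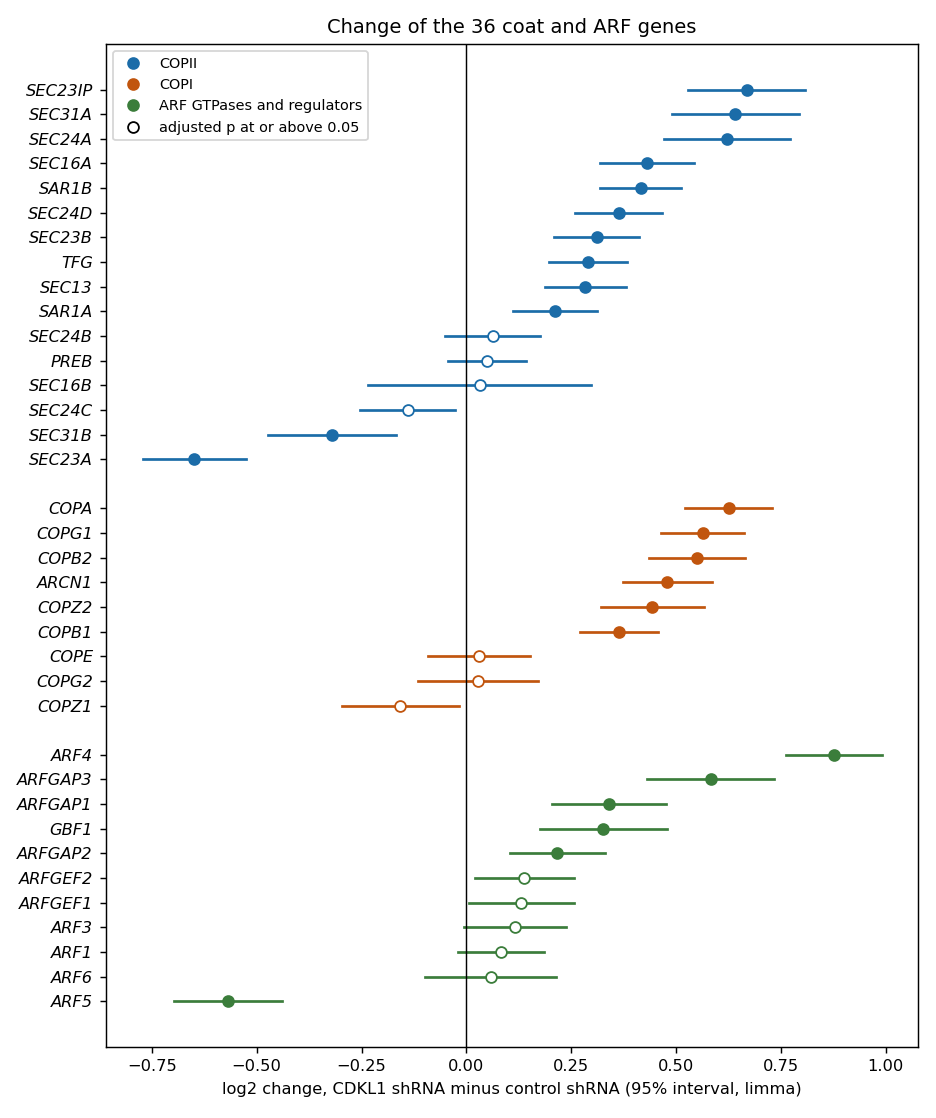
Change of each of the 36 genes in log2 units, CDKL1 shRNA minus control shRNA, with its 95% interval from limma (n = 3 arrays a group). Filled points passed an adjusted p of 0.05 over all genes; most filled points lie right of 0, and SEC23A, SEC31B and ARF5 lie left of it.

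A measure of RNA quality moved with the groups. The 3' minus 5' difference of the ACTB control probe sets, which grows as RNA is degraded or copied incompletely, was 1.52, 1.73 and 1.55 on the CDKL1 shRNA arrays, against 1.40, 1.41 and 1.39 on the control shRNA arrays (log2 units). The groups did not overlap, and an exact two-sided permutation test gave p = 0.1, the smallest value that 3 arrays against 3 can give. The same difference for GAPDH averaged 0.275 ± 0.026 on CDKL1 shRNA arrays and 0.203 ± 0.018 on control shRNA arrays (SD, n = 3 each; exact permutation p = 0.1). When the limma fit held the ACTB difference of each array as a further term, all 21 genes kept a positive and all 3 a negative change, and the median change of the set was 0.25. Only 4 rises (COPA, COPG1, COPZ2 and ARF4) and 2 falls (SEC23A and ARF5) then passed the threshold, where 0.601% and 0.607% of all genes did. At an unadjusted p under 0.05 (limma), 20 of the 36 genes were higher and 3 lower in that fit. The share of all genes at that threshold was not counted, so these counts say nothing about these genes in particular. The median standard error of the 36 genes was 0.093 with this covariate, against 0.050 without it.

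Series-wide checks were few. Array medians lay between 6.64 and 6.70, and arrays correlated across probe sets at r = 0.99759 to 0.99844 within a group and 0.99516 to 0.99613 between groups. Background probe sets, grouped by their number of G and C bases, differed between the groups. CDKL1 shRNA minus control shRNA was -0.21 to -0.177 with 19 to 24 such bases and -0.132 to -0.052 with 14 to 18. It was -0.03 to 0.018 with 4 to 13, -0.068 with 25 and -0.06 with 3. The part of this difference in the changes of the coat genes was not tested. CDKL1 itself was at 4.25, 4.20 and 4.08 on the CDKL1 shRNA arrays and 4.51, 4.42 and 4.17 on the control shRNA arrays, at percentile 10.0 of all genes. Its change was -0.19 (adjusted p = 0.219, limma), so this probe set gave no check of the knockdown. CDKL1 was called lower in 1 of 12 alternative settings, without control shRNA replicate 3 (-0.29, adjusted p = 0.0489, limma). The epithelial markers EPCAM and KRT18 stood at 13.53 and 14.25, while VIL1, CDX1, GPA33 and LGALS4 were low, at 5.37 to 6.19. Among 12 colorectal epithelial markers 1 rose (KRT20, by 0.52) and 1 fell (VIL1, by 0.57 on the log2 scale, not called without control shRNA replicate 1 or 3), and the summed linear level of the list was 65906 to 67294 on CDKL1 shRNA arrays against 69249 to 69839 on control shRNA arrays. Of 9 measured leukocyte markers CD163 and CD68 rose (0.65 and 0.39), and PTPRC was at 3.55. The median change of the 9 was -0.04, with 4 of the changes above 0. Their summed level was 389 to 411 on CDKL1 shRNA arrays against 347 to 370 on control shRNA arrays. CD68, at 7.25, was the brightest of the 9 and weighs most in that sum, and CD163 was dim, at 4.89. The CD68 call held in 7 of 12 alternative settings and was lost without CDKL1 shRNA replicate 2 or 3 or control shRNA replicate 1 or 2. Of 10 fibroblast markers only POSTN was called (0.23), in 2 of 12 alternative settings and not without any 1 of the 6 arrays, with sums of 327 to 374 on CDKL1 shRNA arrays against 342 to 365 on control shRNA arrays. Of 6 endothelial markers 0 were called (limma; also 0 at an unadjusted p under 0.05), with sums of 314 to 335 on CDKL1 shRNA arrays against 315 to 328 on control shRNA arrays. The part of these markers in the changes of the coat genes was not tested.

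Since many of these genes moved together, the sequence around their start sites was examined. RefSeq promoter windows (GRCh38.p14, 250 bases before to 50 after an annotated start) were matched by symbol for 32 of the 36 genes. ARF4, SEC24D, ARFGAP1 and ARFGEF1 were not matched. Both strands were searched for TGACGTGG, an element of the type bound by the unfolded protein response factors ATF6 and XBP1 and by factors of the CREB3 family. It was found for 9 of the 32 coat genes (28.1%), against 160 of the 14425 measured genes with a window (1.11%). By window, it was in 10 of the 46 of the coat genes, against 256 of 35116 of all genes (0.729%). The motif was chosen with the expression results of these genes known, and a match is a description, not a binding site.

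Of the 250 bases upstream of a start, SEC24A (COPII) and COPB1 (COPI) are shown whole as examples, read 5′ to 3′ on the gene's strand. Capitals mark the match, which reads TGACGTGG on the gene's strand or CCACGTCA where the match lies on the other strand.
SEC24A, chr5:134648535-134648784, plus strand: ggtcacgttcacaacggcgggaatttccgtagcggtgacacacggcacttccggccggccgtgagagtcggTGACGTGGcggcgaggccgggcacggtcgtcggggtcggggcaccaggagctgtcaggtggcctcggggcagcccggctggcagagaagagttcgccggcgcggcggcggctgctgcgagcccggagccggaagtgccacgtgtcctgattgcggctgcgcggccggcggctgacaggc
COPB1, chr11:14499812-14500061, minus strand: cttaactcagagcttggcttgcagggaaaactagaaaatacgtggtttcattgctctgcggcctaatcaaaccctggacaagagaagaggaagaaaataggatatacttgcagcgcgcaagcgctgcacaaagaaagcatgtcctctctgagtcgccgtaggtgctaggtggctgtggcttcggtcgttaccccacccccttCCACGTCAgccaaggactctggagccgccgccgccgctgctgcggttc
For the other genes with a match, 30 bases around it are shown, with the same use of capitals. COPB2 held 2 matches.
COPA, chr1:160343227-160343256, minus strand: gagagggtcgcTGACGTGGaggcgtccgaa
COPB2, chr3:139389825-139389854, minus strand: gctcagcggcaCCACGTCAcggcccttagt
COPB2, chr3:139389632-139389661, minus strand: tcccggaagttCCACGTCAgtcagtctgac
SEC16A, chr9:136484707-136484736, minus strand: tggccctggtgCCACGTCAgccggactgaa
GBF1, chr10:102245526-102245555, plus strand: gaggctagttaCCACGTCAgtgagctgaca
ARF1, chr1:228082681-228082710, plus strand: cccggaggcgcTGACGTGGccgccgtcaga
SEC16B, chr1:177984297-177984326, minus strand: ttctgggcagcTGACGTGGcaacacagttt
SEC23A, chr14:39103221-39103250, minus strand: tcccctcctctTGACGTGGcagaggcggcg

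The match was not a property of the genes that rose alone. Of 18 higher genes with a window 6 held it (SEC24A, SEC16A, COPA, COPB1, COPB2 and GBF1), of 3 lower genes 1 did (SEC23A), and of 11 genes that were not called 2 did (ARF1 and SEC16B). By group, 3 of 9 COPI genes, 4 of 15 COPII genes and 2 of 8 genes of the ARF group held it. Among all 160 measured genes with the match, 24.4% rose and 4.38% fell, against 9.44% and 7.94% of all measured genes with a window. The 6 letters GACGTG, which lie within TGACGTGG, were found for 19 of the 32 coat genes (59.4%), against 11.5% of measured genes with a window. By window, they were in 22 of 46, against 7.81% of all windows. That included 8 of 9 COPI genes, 9 of 15 COPII genes and 2 of 8 of the ARF group.

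Other elements of stress-responsive promoters were not found in these windows. The cyclic AMP response element TGACGTCA occurred for 0 of the 32 genes, against 3.11% of measured genes with a window. The endoplasmic reticulum stress element, CCAAT and CCACG with 9 bases between, occurred for 0 of 32, against 0.125% of measured genes. Its second form, ATTGG and CCACG with 1 base between, occurred for 0 of 32, against 0.111%. At shares this low, 0 of 32 genes is little or no departure from all measured genes. Absence of these letters from a window says nothing about the factors that bind them.

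**Figure D2:**
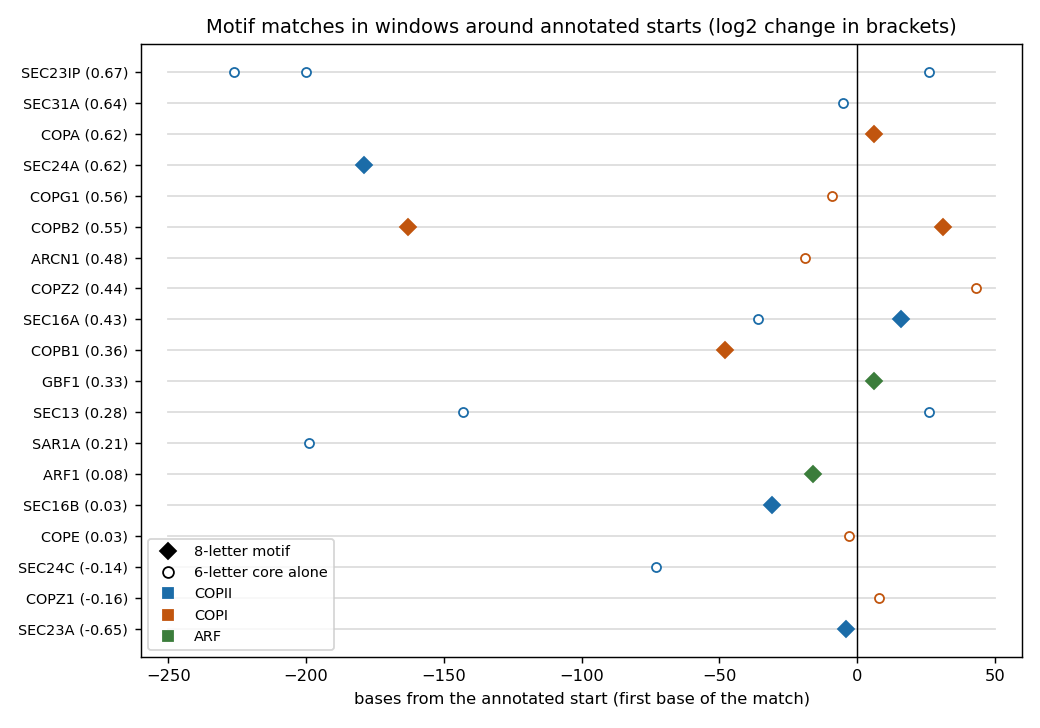
Position of each match relative to the annotated start (0 on the x axis, in bases; upstream is negative) for the coat genes with a match, ordered by their log2 change, which is printed in brackets (CDKL1 shRNA minus control shRNA). Filled diamonds mark the 8-letter motif and open circles its 6-letter core outside the longer motif; where windows of 2 starts overlap, a match is drawn once. Diamonds are found among genes that rose, among those not called and beside SEC23A, which fell.

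Among the factors known to act on secretory genes, CREB3 and CREB3L2 moved in opposite directions. CREB3, a membrane-bound transcription factor released by cleavage in the Golgi, was at 10.44, 10.54 and 10.59 on CDKL1 shRNA arrays, against 9.85, 9.80 and 9.75 on control shRNA arrays. It rose by 0.72 (SE 0.055, adjusted p = 0.000412, limma), and its groups were well apart. CREB3L2, a related factor that drives SEC23A in chondrocytes of the mouse, was at 9.79, 9.84 and 9.84 with CDKL1 shRNA, against 10.37, 10.50 and 10.47 with control shRNA and fell by 0.62 on the log2 scale (adjusted p = 0.000479). The mean of its 7 probe sets changed by much less, -0.18, which still passed. ATF6, the endoplasmic reticulum stress sensor, rose by 0.32 (adjusted p = 0.00538). The other 6 of the 9 listed genes did not pass, among them XBP1 (0.11, adjusted p = 0.278) and ATF4 (-0.10, adjusted p = 0.189).

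COPII formation starts with SAR1, and both SAR1 genes rose. SAR1B, the form needed for chylomicron export from the gut, was at 10.82, 10.86 and 10.87 on CDKL1 shRNA arrays, against 10.41, 10.43 and 10.46 on control shRNA arrays. This is a rise of 0.42 (SE 0.041, adjusted p = 0.00106, limma), and the lowest CDKL1 shRNA array lay 0.36 above the highest control. SAR1A was at 10.56, 10.53 and 10.55 with CDKL1 shRNA, against 10.29, 10.36 and 10.36 with control shRNA, a rise of 0.21 (adjusted p = 0.0165). Its call held in 9 of 13 alternative settings and was lost without CDKL1 shRNA replicate 1 or 3. Its 2 other probe sets rose by 0.57 and 0.22, and the mean of all its probe sets rose by 0.34, so the size of its rise depends on the probe set. PREB, the membrane protein that loads SAR1 with GTP (SEC12 in yeast), was at 8.92, 8.94 and 8.91 with CDKL1 shRNA, against 8.86, 8.89 and 8.87 with control shRNA. Its groups were just apart, by 0.02, and its change of 0.05 did not pass (adjusted p = 0.463).

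The inner coat, in which SEC23 activates the GTPase of SAR1 and SEC24 binds cargo, changed unevenly between its paralogs. SEC23A was at 9.99, 10.03 and 10.05 on CDKL1 shRNA arrays, against 10.58, 10.71 and 10.72 on control shRNA arrays. The fall was -0.65 in log2 units, to 0.64 of the control level (limma, adjusted p = 0.000483, SE 0.052), and no other of the 36 genes fell further. SEC23B, its close paralog, was at 11.04, 11.07 and 11.10 with CDKL1 shRNA, against 10.74, 10.74 and 10.80 with control shRNA, and rose by 0.31 (SE 0.043, adjusted p = 0.00372). The other SEC23B probe set gave 0.13 and was not called, and the mean of both, 0.22, passed. Of the 3 other SEC23A probe sets 2 were also called lower, at -0.55 and -0.45, and the dimmest, at a level of 6.91, gave -0.02; the mean of all 4 changed by -0.42.

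SEC24 has 4 forms that differ in the cargo they prefer. SEC24A was at 9.94, 10.02 and 10.00 on CDKL1 shRNA arrays, against 9.28, 9.33 and 9.49 on control shRNA arrays, a rise of 0.62 (SE 0.064, adjusted p = 0.0012, limma). All 3 other SEC24A probe sets rose too, by 0.52 to 0.55. SEC24D was at 8.68, 8.66 and 8.71 with CDKL1 shRNA, against 8.37, 8.30 and 8.30 with control shRNA, a rise of 0.36 (adjusted p = 0.00227). Its 2 other probe sets gave 0.76 and 0.02 and were not called, and the mean of all 3, 0.38, passed. SEC24B gave 9.97, 9.88 and 10.01 with CDKL1 shRNA, against 9.89, 9.92 and 9.86 with control shRNA, which overlap (0.06, adjusted p = 0.443). SEC24C lay lower on every CDKL1 shRNA array, at 9.47, 9.49 and 9.53 with CDKL1 shRNA, against 9.71, 9.59 and 9.62 with control shRNA, but its change of -0.14 did not pass (adjusted p = 0.0966). Rises thus passed for SEC24A and SEC24D and not for SEC24B and SEC24C.

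The outer coat showed rises in both widely used subunits. SEC13, which also serves in the nuclear pore, was at 12.32, 12.36 and 12.30 on CDKL1 shRNA arrays, against 12.04, 12.04 and 12.06 on control shRNA arrays (0.28, SE 0.041, adjusted p = 0.00449, limma). SEC31A was at 8.68, 8.66 and 8.55 with CDKL1 shRNA, against 7.88, 8.05 and 8.05 with control shRNA, a rise of 0.64 (SE 0.065, adjusted p = 0.0011). The groups of both genes were apart, and the second SEC31A probe set rose by 0.63. SEC31B, the less widely expressed form, was dimmer, at 6.42, 6.56 and 6.46 with CDKL1 shRNA, against 6.83, 6.69 and 6.88 with control shRNA, and fell by 0.32 on the log2 scale (adjusted p = 0.0165). None of its 4 other probe sets was called (-0.16 to 0.04), and the mean of all 5 changed by -0.09 and did not pass. Its call was lost without CDKL1 shRNA replicate 1 or 3 or control shRNA replicate 1 or 3, and it held in 5 of 12 alternative settings.

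Of the 4 proteins that organise exit sites on the endoplasmic reticulum, 3 rose. SEC23IP, a lipid-binding partner of SEC23, was at 10.28, 10.33 and 10.43 on CDKL1 shRNA arrays, against 9.65, 9.76 and 9.63 on control shRNA arrays. It rose by 0.67 (SE 0.059, adjusted p = 0.000741, limma), and its 2 other probe sets rose by 0.73 and 0.99. SEC16A, the scaffold of exit sites, was at 10.83, 10.88 and 10.88 with CDKL1 shRNA, against 10.50, 10.39 and 10.40 with control shRNA (0.43, adjusted p = 0.00156). Of its 3 other probe sets 1 was called (0.26) and the others gave 0.02 and 0.06; the mean of all 4 rose by 0.19. TFG, which forms a meshwork around budding vesicles, was at 11.19, 11.17 and 11.20 with CDKL1 shRNA, against 10.90, 10.91 and 10.89 with control shRNA (0.29, adjusted p = 0.00359). The groups of SEC23IP, SEC16A and TFG were apart. SEC16B, the short form, was the dimmest of the 36 genes, at percentile 24.6, and gave 5.42, 5.39 and 5.50 with CDKL1 shRNA, against 5.68, 5.31 and 5.23 with control shRNA, which overlap (0.03, adjusted p = 0.888).

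COPI is a complex of 7 subunits, named alpha to zeta. Rises passed for alpha, beta, beta prime, delta and 1 of the forms each of gamma and zeta. COPA, the alpha subunit, which binds retrieval signals of cargo, was at 11.10, 11.13 and 11.09 on CDKL1 shRNA arrays, against 10.43, 10.48 and 10.53 on control shRNA arrays. It rose by 0.62, or 1.54-fold (SE 0.044, adjusted p = 0.00031, limma), and the lowest CDKL1 shRNA array lay 0.57 above the highest control. COPB2, the beta prime subunit that pairs with alpha in the outer shell, was at 11.03, 11.08 and 11.10 with CDKL1 shRNA, against 10.45, 10.55 and 10.56 with control shRNA, a rise of 0.55 (adjusted p = 0.00073). Its second probe set gave 0.32 and was not called.

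The subunits of the inner, adaptor-like part of the coat followed in part. COPB1 (beta) was at 12.52, 12.48 and 12.50 on CDKL1 shRNA arrays, against 12.14, 12.12 and 12.15 on control shRNA arrays (0.36, SE 0.040, adjusted p = 0.00151, limma). ARCN1 (delta) was at 11.77, 11.86 and 11.83 with CDKL1 shRNA, against 11.34, 11.31 and 11.37 with control shRNA, a rise of 0.48 (adjusted p = 0.000894). COPG1 (gamma) was at 10.60, 10.67 and 10.66 with CDKL1 shRNA, against 10.07, 10.07 and 10.10 with control shRNA, a rise of 0.56 (SE 0.042, adjusted p = 0.000387). In these genes the groups were apart by 0.33, 0.40 and 0.50. The other gamma form, COPG2, gave 8.17, 8.38 and 8.25 with CDKL1 shRNA, against 8.22, 8.25 and 8.25 with control shRNA, which overlap (0.03, adjusted p = 0.817).

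COPZ2, a zeta subunit, was one of the dimmer members, at 7.13, 7.02 and 7.17 on CDKL1 shRNA arrays against 6.68, 6.63 and 6.69 on control shRNA arrays (0.44, adjusted p = 0.00207, limma). COPZ1, the more abundant zeta form in most cells, was at 10.01, 10.04 and 10.09 with CDKL1 shRNA, against 10.09, 10.28 and 10.24 with control shRNA. Its change of -0.16 did not pass (adjusted p = 0.122), though it did without control shRNA replicate 1 (-0.21, adjusted p = 0.0369), and it was called in 4 of 13 alternative settings. COPE, the epsilon subunit, gave 9.43, 9.28 and 9.30 with CDKL1 shRNA, against 9.29, 9.31 and 9.31 with control shRNA and overlapped (0.03, adjusted p = 0.754), as none of its 4 other probe sets was called (-0.06 to 0.04).

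The ARF GTPases themselves changed in opposite directions within 1 class. ARF4, of class II, was at 13.46, 13.42 and 13.40 on CDKL1 shRNA arrays, against 12.48, 12.60 and 12.57 on control shRNA arrays. It rose by 0.88, or 1.84-fold (SE 0.049, adjusted p = 0.000157, limma), rank 53 of all genes by size of change, and the groups were 0.80 apart. Its other probe set rose by 0.97, and both carry a suffix for probes that can bind related transcripts. ARF5, the other class II form, was at 10.40, 10.52 and 10.49 with CDKL1 shRNA, against 11.11, 10.98 and 11.03 with control shRNA. Its fall was -0.57 in log2 units (limma, adjusted p = 0.000963, SE 0.055), and all 3 of its other probe sets fell as well, by values of -0.62 to -0.52.

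The class I and class III forms did not pass. ARF1, the main recruiter of COPI, was at 12.54, 12.56 and 12.54 on CDKL1 shRNA arrays, against 12.50, 12.42 and 12.47 on control shRNA arrays (0.08, adjusted p = 0.262, limma). ARF3 was at 11.17, 11.25 and 11.22 with CDKL1 shRNA, against 11.02, 11.11 and 11.16 with control shRNA (0.12, adjusted p = 0.183), and it was called in 1 of 13 alternative settings. In both genes the CDKL1 shRNA arrays lay just above the controls, by 0.03 and 0.02. ARF6, which works at the plasma membrane, was at 11.16, 11.22 and 11.24 with CDKL1 shRNA, against 11.01, 11.23 and 11.21 with control shRNA, which overlap (0.06, adjusted p = 0.623).

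**Figure D3:**
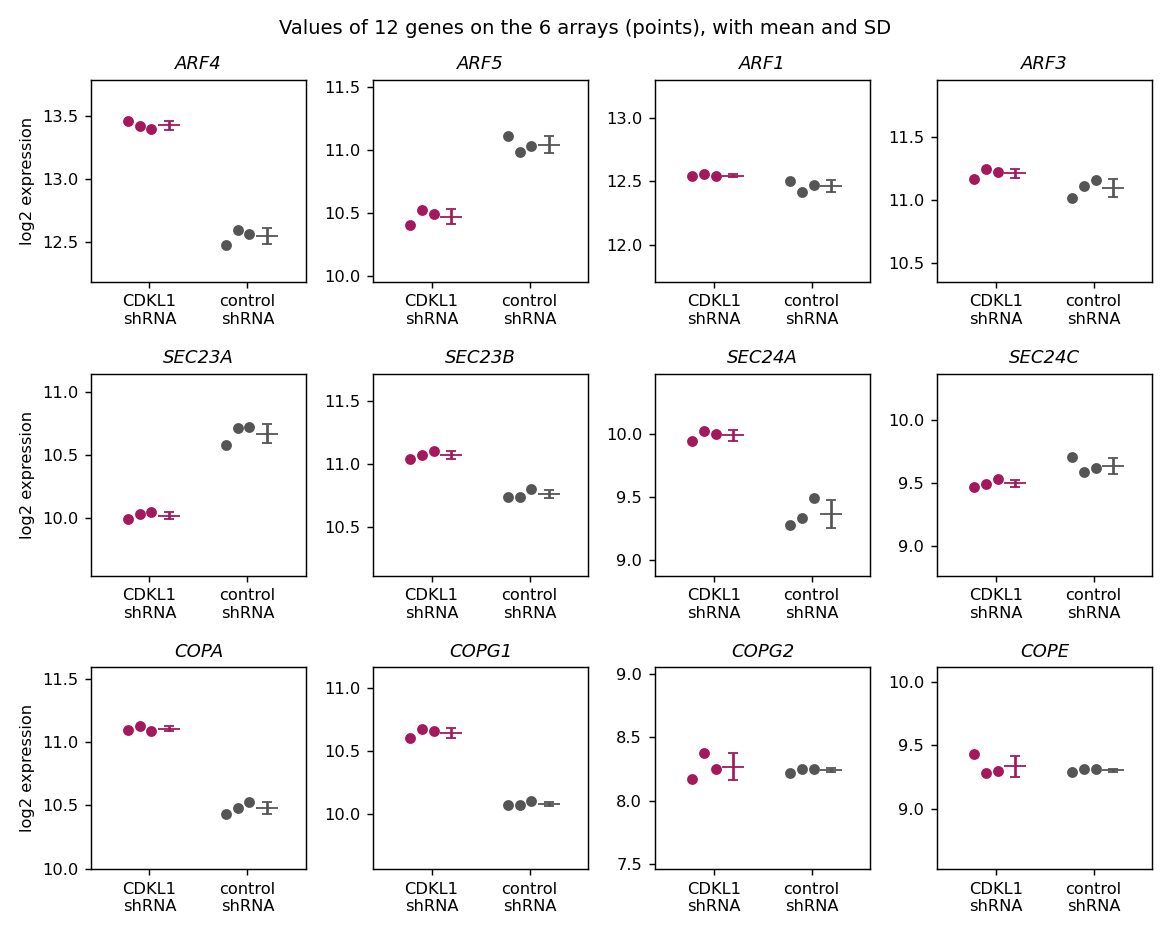
Log2 expression of 12 of the genes on each array (points) with mean and SD (n = 3), CDKL1 shRNA left of control shRNA; each panel has its own axis. ARF4, SEC23B, SEC24A, COPA and COPG1 lie higher on CDKL1 shRNA arrays, ARF5 and SEC23A lower, and COPG2 and COPE overlap.

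All 3 GTPase-activating proteins of the Golgi rose. ARFGAP3 was at 9.90, 9.78 and 9.86 on CDKL1 shRNA arrays, against 9.14, 9.32 and 9.33 on control shRNA arrays, a rise of 0.58 (SE 0.064, adjusted p = 0.00156, limma). ARFGAP1, whose binding depends on membrane curvature, was at 8.88, 9.0 and 8.93 with CDKL1 shRNA, against 8.64, 8.50 and 8.65 with control shRNA (0.34, adjusted p = 0.00817). ARFGAP2, a coatomer-binding form, was at 9.0, 9.1 and 9.06 with CDKL1 shRNA, against 8.89, 8.82 and 8.80 with control shRNA (0.22, adjusted p = 0.0231). ARFGAP2 was the least stable of the 3: its call held in 6 of 13 alternative settings, and none of its 3 other probe sets was called (-0.03 to 0.12). It was lost without CDKL1 shRNA replicate 2 or 3 or control shRNA replicate 2 or 3.

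Of the exchange factors, GBF1 of the early Golgi was at 8.31, 8.36 and 8.53 on CDKL1 shRNA arrays, against 8.04, 8.09 and 8.09 on control shRNA arrays (0.33, SE 0.064, adjusted p = 0.0146, limma). Its second probe set, dim at 5.67, gave -0.02, and the mean of both, 0.16, did not pass. ARFGEF1, an exchange factor of the trans-Golgi network, was at 9.55, 9.48 and 9.49 with CDKL1 shRNA, against 9.29, 9.44 and 9.40 with control shRNA (0.13, adjusted p = 0.152). ARFGEF2, its paralog, was at 10.52, 10.61 and 10.62 with CDKL1 shRNA, against 10.40, 10.50 and 10.44 with control shRNA (0.14, adjusted p = 0.113). Both lay just above their controls, by 0.04 and 0.02, without passing, though both were called in 2 of 13 alternative settings, and the second ARFGEF1 probe set was called higher (0.24, adjusted p = 0.0321 over all probe sets).

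Paralogs were also set against each other. The within-array log2 difference of a pair was compared between the groups for 12 pairs of paralogs. An exact two-sided permutation test cannot give less than p = 0.1 here, so no pair could pass, and the values are a description. The change of ARF4 exceeded that of ARF5 by 1.44, and by 1.38 to 1.54 over 13 alternative settings. SEC31A exceeded SEC31B by 0.96 (0.73 to 1.05 over 12 settings), and SEC23B exceeded SEC23A by 0.96 (0.63 to 0.99 over 13). COPZ2 exceeded COPZ1 by 0.60 (0.55 to 0.72), SEC24A exceeded SEC24B by 0.56 (0.42 to 0.63), COPG1 exceeded COPG2 by 0.54 (0.46 to 0.66) and SEC24D exceeded SEC24C by 0.50 (0.46 to 0.52). The lowest and highest values were over 1.5 times apart for SEC23B against SEC23A, and also for the SEC16, ARFGAP and SAR1 pairs below. SEC16A exceeded SEC16B by 0.40 (0.21 to 0.47), ARFGAP3 exceeded ARFGAP2 by 0.37 (0.28 to 0.54) and SAR1B exceeded SAR1A by 0.20 (0.07 to 0.22). For ARF1 against ARF3 (-0.03) and ARFGEF2 against ARFGEF1 (0.01) the groups overlapped.

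The other probe sets of these genes gave a second reading of the same RNA. The 36 genes had 100 probe sets in all, and over all 44988 probe sets with 1 symbol 7.43% were called higher and 5.34% lower. The 24 called genes had 44 other probe sets, of which 41 had the sign of the first, 26 were called in its direction and 0 in the opposite one. At least 1 other probe set was called the same way in 15 of the 21 genes that had one. Of 20 other probe sets of genes not called, 1 was called. Probe sets of a gene share the RNA and are not replicates. The first reading came from a probe set whose suffix marks possible binding to related transcripts in 13 of the 36 genes, of which 8 were called higher and 0 lower. In the 23 others 13 were called higher and 3 lower.

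**Figure D4:**
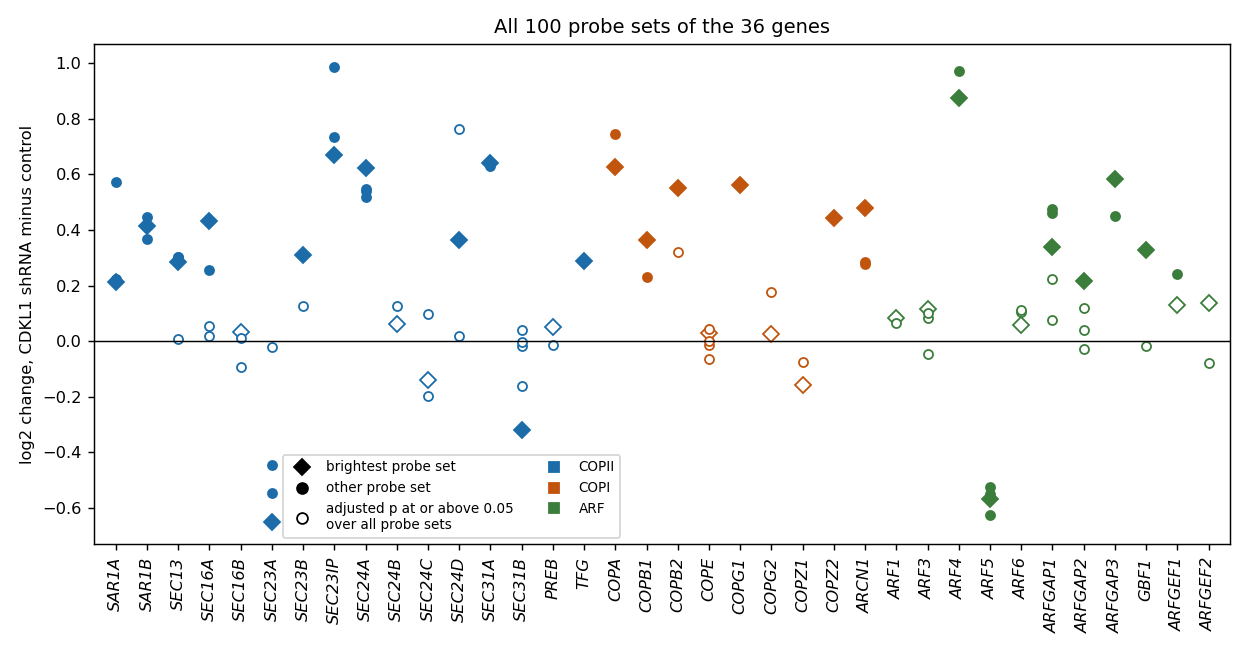
Log2 change of all 100 probe sets of the 36 genes, CDKL1 shRNA minus control shRNA. Diamonds are the brightest probe set of a gene, circles the others, and filled symbols passed an adjusted p of 0.05 over all probe sets; the 4 ARF5 probe sets lie together below 0 and both ARF4 probe sets above 0.8.

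Neighbouring lists of the pathway were read beside the coats. Over all genes 8.97% rose and 7.79% fell, and among genes brighter than the median gene 15.5% and 12.3%. The list of COPII cargo receptors and exit site partners held 18 genes, of which 16 were measured. Of these 7 rose (43.8%) and 0 fell by limma, with a median change of 0.15. At an unadjusted p under 0.05, also 0 were lower. LMAN1, the receptor that carries coagulation factors, was at 12.10, 12.03 and 12.02 on CDKL1 shRNA arrays, against 10.61, 10.99 and 10.97 on control shRNA arrays, a rise of 1.19 (SE 0.10, adjusted p = 0.000646, limma). The mean of its 6 probe sets rose by 0.55. SURF4, another cargo receptor, rose by 0.54 (adjusted p = 0.000827), ERGIC2 by 0.33 and RAB1A, the GTPase of transport to the Golgi, by 0.27. The RAB1A call was lost without any 1 of the CDKL1 shRNA arrays. Of 14 listed partners of COPI retrieval 11 were measured. Among these 6 rose (54.5%) and 0 fell (1 lower at an unadjusted p under 0.05), with a median of 0.19. KDELR3, a receptor for escaped endoplasmic reticulum proteins, was at 11.01, 10.95 and 10.93 with CDKL1 shRNA, against 10.03, 10.20 and 10.09 with control shRNA, a rise of 0.86 (SE 0.057, adjusted p = 0.000244). The retrieval proteins RER1, USE1 and SCFD2 rose by 0.36, 0.27 and 0.36.

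Other vesicle coats and the remaining ARF regulators were counted in the same way. Against 15.5% higher and 12.3% lower among genes brighter than the median gene, 5 of 28 measured clathrin and adaptor genes rose (17.9%) and 3 fell (10.7%). Their median change was 0.07. Among them CLTA, a clathrin light chain, rose by 0.21 and AP1S1 by 0.22, while AP1B1 and AP3M2 gave -0.24 and -0.21, both passing as falls. These calls were unsteady: CLTA was called in 5, AP3M2 in 6 and AP1B1 in 8 of 13 alternative settings. Leaving out either CDKL1 shRNA replicate 1 or 3 or control shRNA replicate 2 ended the calls of all 3. AP1S1 lost its call without CDKL1 shRNA replicate 3. Of 20 genes listed as other ARF GTPase-activating proteins 2 rose and 0 fell (2 lower at an unadjusted p under 0.05). The rises were GIT2 (0.49, or 0.24 as the mean of its probe sets) and AGFG1 (0.34), and the median of the list was -0.02. Of 12 genes listed as other ARF exchange factors 1 rose (FBXO8, 0.38) and 1 fell (CYTH3, -0.19, called in 5 of 13 alternative settings). The shares of both lists called higher, 10.0% and 8.3%, were near the 8.97% over all genes, and 0% and 8.3% called lower stood beside 7.79%. Of 19 listed ARF-like GTPases only 8 were measured, of which 2 rose (25.0%) and 1 fell (12.5%). ARL1, which acts at the trans-Golgi, was at 11.32, 11.33 and 11.34 on CDKL1 shRNA arrays, against 10.75, 10.80 and 10.80 on control shRNA arrays, a rise of 0.54 (SE 0.041, adjusted p = 0.000387, limma). ARL2 changed by -0.28 and passed as a fall. ARL16, at 0.16, passed here but was called in only 2 of 13 alternative settings, and not without any 1 of the 6 arrays. The differences between these lists and the coats were not tested.

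**Figure D5:**
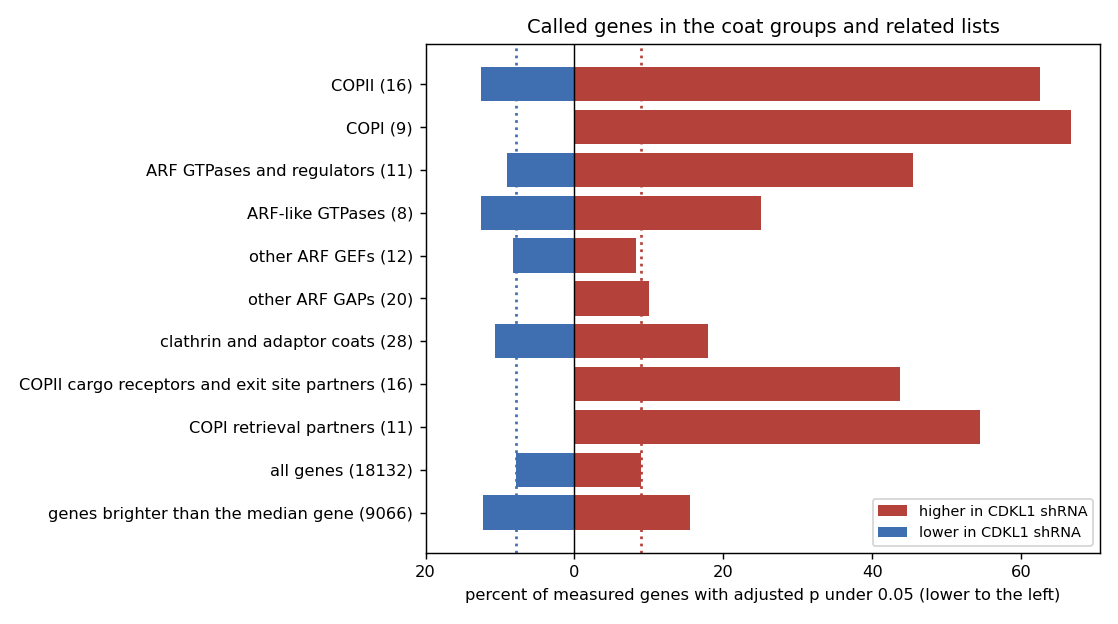
Percent of the measured genes of each list (number in brackets) called higher (right of 0) or lower (left of 0) in CDKL1 shRNA cells at an adjusted p under 0.05; dotted lines mark the shares over all genes. The bars for higher genes reach 66.7% for COPI, 62.5% for COPII and 45.5% for the ARF group, against 15.5% of genes brighter than the median gene.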

How the data were processed

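Total RNA of 6 DLD1 samples, 3 per group by their titles, was extracted with TRIzol and hybridised as biotin-labelled cRNA, per the labels' protocols. The deposited table holds log2 expression values, which the authors made with RMA, per the submitters' processing notes; the version of RMA was not given in the sources used here. This method assumes that most genes do not change and compresses changes of dim probe sets. Gene symbols came from the platform's annotation table, and 102 control probe sets were left out. All 18132 genes were fitted with limma 3.58.1 in R 4.3.3, with the group alone as a term (lmFit, eBayes, two-sided, Benjamini-Hochberg over all genes, threshold 0.05), with no filter on dim genes. The fit was tested on simulated data with independent noise on each array. That test cannot speak to the differences in RNA quality and background between these groups.

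The members, lists and motifs were chosen with earlier results of these data known. Named genes were all 36 members, up to 4 called genes with the smallest adjusted p of each other list, CDKL1 and called markers; further genes were named after their values were seen. The design text calls the samples independent, but no label names separate infections, so the p-values rest on a spread between samples that may be technical. The number of arrays limits the precision. The labels do not say whether replicate numbers pair the samples, and the main fit did not pair them. Alternatives were a replicate block, leaving out each array, 2 other scalings, the mean of all probe sets, bright genes alone, another variance model and an RNA quality covariate. Sequences were taken from RefSeq windows (GRCh38.p14), and the array's own build stays unnamed: not given in the sources used here.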

Additional observations from a re-analysis of the deposited data

How the results depend on the processing

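In 13 alternative settings all 21 higher and all 3 lower genes that were tested kept their sign. Without each array in turn the number of coat genes higher was 19 to 21 and lower 2 to 3, and of COPII genes lower 1 to 2, COPI genes lower 0 to 1, and the ARF median 0.113 to 0.169. Over all genes 4.94% to 7.25% were higher and 4.07% to 5.98% lower in these fits. With the replicate block 19 of the 21 and 2 of the 3 calls held (SAR1A, ARFGAP2 and SEC31B were lost) and COPII had 1 gene lower, while over all genes the calls fell to 1024 higher and 779 lower, against 1627 and 1413; same-numbered arrays correlated in their deviations at -0.029, -0.121 and 0.07. Under a further quantile normalization the COPII median was 0.263, the ARF median 0.105 and COPI genes lower 1. With array medians subtracted the medians were 0.299 and 0.15. With the mean of all probe sets COPII had 1 gene lower and the medians of COPII, COPI and ARF were 0.221, 0.347 and 0.0917. Among bright genes alone, 33 of them members, the COPII median was 0.3 and COPI genes lower 1. Of the 9066 genes tested in that setting, 2210 (24.4%) were called higher and 1781 (19.6%) lower. With a trended, robust variance model 5 coat genes were lower, among them 1 of COPI, as SEC24C and COPZ1 then passed. In the same model 23 were higher, with 7 of the ARF group, as ARF3 and ARFGEF2 passed. Over all genes this model called 12.7% higher and 10.5% lower, against 8.97% and 7.79% in the main fit. Bright genes alone gave 22 higher and 7 of ARF, with ARFGEF1 and ARFGEF2. With the ACTB covariate the genes higher by limma were 4 in all, 0 of COPII, 3 of COPI and 1 of ARF. At an unadjusted p under 0.05 they were 20 in all, of which 10, 6 and 4. The share of all genes was not counted there, so these counts cannot be set against it. COPII had 1 gene lower at the adjusted threshold and a median of 0.271, and over all genes 109 rose and 110 fell. The larger standard errors in this fit go with a covariate that differs between the groups. The cause of the lost calls was not tested.

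The sign reversed only for genes that were not called. Without single arrays COPE gave -0.016 to 0.059, COPG2 -0.03 to 0.077, ARF6 -0.011 to 0.097 and SEC16B -0.057 to 0.169, with 3 of its values below 0 (-0.057, -0.017 and -0.001). Under quantile normalization COPE gave -0.005 and COPG2 -0.001, with the mean of all probe sets SEC16B gave -0.017 and COPE -0.001, and with the ACTB covariate COPG2 gave -0.15.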
